A study of Mus musculus with 16 samples.

Results

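The lipid droplet genes examined here are 10 genes whose proteins coat, enlarge or empty the fat droplets of cells: the perilipins Plin2, Plin4 and Plin5, the CIDE genes Cidea, Cideb and Cidec, and the lipolysis genes G0s2, Pnpla2, Pnpla3 and Mgll. They were found among the array's probe sets by their single gene symbol, and all 10 of 10 were present, each with exactly 1 probe set, among 19938 genes in all. Transcript levels had been measured in liver from 16 adult mice, which formed 4 groups of 4 animals that had eaten their diet for 12 weeks. The groups are mice with 1 null copy of Gli2 on the high-fat diet (Het_HFD), Gli2 heterozygotes on the control diet (Het_control), wild-type mice given the high-fat diet (WT_HFD) and wild-type mice given the control diet (WT_control). Gli2 carries hedgehog signals to their target genes, and the study set a lowered dose of it against fatty liver caused by diet. For the wild-type mice the genotype label reads Gli1_WT although the series is about Gli2, and they are taken as wild type. Strain, sex and exact age of the mice, the composition of the diets and the breeding of the Gli2 null allele are not stated in the labels or the series text.

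Liver cells store triglyceride in droplets bounded by a single layer of phospholipid. Perilipins cover that surface and set how easily lipases reach the fat, CIDE proteins pass lipid from small droplets to large ones, and adipose triglyceride lipase, encoded by Pnpla2, starts the breakdown, which monoacylglycerol lipase, encoded by Mgll, completes. In mouse liver, transcripts of many droplet proteins are known to rise with fat storage, and Pnpla3 is known to follow feeding with carbohydrate through the factors SREBP-1c and ChREBP.

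All values are levels on the log2 scale after RMA, a normalization that puts the arrays on a common scale, so a difference of 1 is a doubling or halving, and levels of different genes are not set against each other. A gene is said to have risen or fallen where limma, fitted over all 19938 genes, gave an adjusted p under 0.05. Gli2 itself averaged 7.53 ± 0.07 in Het_HFD, 7.70 ± 0.30 in Het_control, 7.51 ± 0.08 in WT_HFD and 7.57 ± 0.02 in WT_control (SD, n = 4 each), and genotype over both diets gave a difference of 0.079 (SE 0.07, limma adjusted p = 0.632), so its probe set does not check the genotype labels. One array, animal 2 of the Het_control group, stood apart: it correlated with the other arrays at 0.961 to 0.979 across genes, against 0.990 to 0.997 among the other 15. Its gene levels were also less spread, with an interquartile range of 1.95 against 2.40 to 2.60 on the other 15 arrays. Several results that moved with this array are also given without it. Hepatocyte markers were high in every group, with the summed level of the 8 markers between 16.63 and 16.83 on the log2 scale on all arrays, and 0 of 8 were called in the diet comparisons.

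Of the 10 genes, 3 fell on the high-fat diet over both genotypes, namely Pnpla3, Plin4 and Plin5, and 0 rose. The background for this comparison was 1.86% of all 19938 genes called in either direction and 0.512% called lower, with 1.35% called higher. The 3 genes are shown here by the stretch of DNA around their transcription start, so that the sequences ahead of the transcripts that moved can be read together. Each window runs from 250 bases before the start to 50 after it, is taken from RefSeq on mouse build GRCm38.p6 and is written 5′ to 3′ on the gene's strand. Windows were found for 9 of the 10 genes. Capitals mark matches, on either strand, to the CCAAT box (CCAAT, or ATTGG on the other strand), the GC box (GGGCGG, or CCGCCC) and the nuclear receptor half-site (AGGTCA, or TGACCT).
Plin4, chr17:56109733-56110032, minus strand: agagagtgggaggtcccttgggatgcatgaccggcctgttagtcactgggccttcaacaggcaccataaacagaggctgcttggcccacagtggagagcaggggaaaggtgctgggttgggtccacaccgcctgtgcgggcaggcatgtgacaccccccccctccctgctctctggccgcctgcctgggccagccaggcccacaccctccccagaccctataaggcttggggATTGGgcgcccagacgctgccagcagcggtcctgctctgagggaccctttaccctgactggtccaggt
Plin5, first start, chr17:56117499-56117798, minus strand: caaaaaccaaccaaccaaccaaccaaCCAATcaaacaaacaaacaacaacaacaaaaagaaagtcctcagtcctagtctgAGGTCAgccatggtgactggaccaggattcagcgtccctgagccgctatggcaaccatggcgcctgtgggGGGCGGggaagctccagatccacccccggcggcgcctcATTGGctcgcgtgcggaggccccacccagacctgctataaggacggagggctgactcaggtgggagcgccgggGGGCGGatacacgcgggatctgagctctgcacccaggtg
Plin5, second start, chr17:56117249-56117548, minus strand: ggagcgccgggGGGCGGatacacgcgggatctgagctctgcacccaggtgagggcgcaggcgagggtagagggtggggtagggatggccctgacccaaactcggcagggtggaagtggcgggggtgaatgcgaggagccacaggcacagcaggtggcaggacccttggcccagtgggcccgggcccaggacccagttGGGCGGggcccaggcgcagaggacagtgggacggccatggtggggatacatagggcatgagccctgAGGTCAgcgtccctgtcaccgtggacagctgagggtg
Pnpla3, chr15:84167566-84167865, plus strand: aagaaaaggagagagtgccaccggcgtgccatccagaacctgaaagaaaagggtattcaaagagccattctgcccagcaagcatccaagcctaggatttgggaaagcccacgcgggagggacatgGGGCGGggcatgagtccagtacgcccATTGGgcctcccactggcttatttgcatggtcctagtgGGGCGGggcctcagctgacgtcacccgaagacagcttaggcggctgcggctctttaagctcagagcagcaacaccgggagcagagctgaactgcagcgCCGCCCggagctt
The 3 genes differ in what their windows hold. A CCAAT box lay 18 bases before the start of Plin4, 99 bases before that of Pnpla3, and 62 and 224 bases before the first start of Plin5, and 37.4% of all 32851 windows of this length hold one. GC boxes were present in the windows of Plin5 and Pnpla3 and not in that of Plin4, against 35.7% of all windows. The half-site AGGTCA was present in both windows of Plin5, against 16.3% of all windows. Matches to the E-box CACGTG, to the sterol regulatory element TCACNCCAC, to TATAAA and to direct repeats of the half-site (AGGTCANAGGTCA and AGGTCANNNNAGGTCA) were absent from these 4 windows, and these motifs were found in 7.15%, 1.24%, 13.6%, 0.0396% and 0.0152% of all windows. Such matches describe the letters in the window only. The 2 windows of Plin5 overlap, and the RefSeq table places Plin4 and Plin5 next to each other on chromosome 17, on the same strand with no other gene between them.

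Pnpla3 encodes a droplet protein of the same patatin-like family as adipose triglyceride lipase. Its level was 9.15, 9.11, 8.84 and 9.17 in Het_HFD, against 9.43, 9.92, 10.69 and 10.06 in Het_control. In wild type it was 9.42, 9.12, 8.84 and 8.80 in WT_HFD, against 9.98, 10.43, 9.58 and 10.38 in WT_control. In both genotypes every high-fat array lay below every control array, and the control groups were more spread than the high-fat groups. The group means were 9.07 ± 0.15 in Het_HFD and 10.02 ± 0.52 in Het_control, and 9.04 ± 0.29 in WT_HFD and 10.09 ± 0.40 in WT_control (SD, n = 4 each). Over both genotypes Pnpla3 fell by 1.0 on the log2 scale, a 2.0-fold lower level (95% interval of the difference -1.33 to -0.67, limma adjusted p = 0.00906). By this size it had the largest diet difference of the 10 genes over both genotypes. The differences were alike in size in heterozygotes (-0.96, SE 0.22) and wild type (-1.05, SE 0.22), and the interaction was 0.092 with a 95% interval of -0.57 to 0.76 (adjusted p = 0.919). This interval does not show that the genotypes responded alike.

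Plin4 encodes a perilipin that coats small, newly formed droplets and is best known from adipose tissue and muscle. Its level was 8.42, 8.27, 8.48 and 8.41 in Het_HFD, against 8.73, 8.81, 8.78 and 8.84 in Het_control. The wild-type levels were 8.25, 8.38, 8.18 and 8.28 in WT_HFD, against 8.51, 8.42, 8.68 and 8.65 in WT_control. High-fat arrays were again all below control arrays within each genotype, by a wide gap in heterozygotes and a narrow one in wild type. The means were 8.39 ± 0.09 in Het_HFD and 8.79 ± 0.05 in Het_control, and 8.27 ± 0.08 in WT_HFD and 8.56 ± 0.12 in WT_control (SD, n = 4 each). By mean level the order was Het_control, WT_control, Het_HFD and WT_HFD, from high to low. Of the neighbours in this order, Het_control and WT_control did not overlap, whereas WT_control overlapped Het_HFD, and Het_HFD overlapped WT_HFD. Over both genotypes Plin4 fell by 0.35 on the log2 scale, a 1.27-fold lower level (95% interval -0.45 to -0.24, limma adjusted p = 0.00594).

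Plin5 encodes the perilipin that ties droplets to mitochondria and restrains lipolysis in tissues that burn fat, liver included. Its level was 9.22, 9.22, 9.35 and 9.34 in Het_HFD, against 9.92, 9.86, 9.80 and 9.62 in Het_control. Wild-type mice had 9.34, 9.39, 9.11 and 9.26 in WT_HFD, against 9.43, 9.29, 9.55 and 9.73 in WT_control. The groups were apart in heterozygotes and overlapped in wild type, where WT_control 2 lay below 2 of the WT_HFD arrays. The means were 9.28 ± 0.07 in Het_HFD and 9.80 ± 0.13 in Het_control, and 9.27 ± 0.12 in WT_HFD and 9.50 ± 0.19 in WT_control (SD, n = 4 each). Over both genotypes Plin5 fell by 0.37 on the log2 scale, a 1.29-fold lower level (95% interval -0.51 to -0.23, limma adjusted p = 0.0137). The calls of Plin4, Plin5 and Pnpla3 over both genotypes were made without each of the 16 arrays in turn, with adjusted p up to 0.0207 for Plin4, 0.0355 for Plin5 and 0.0307 for Pnpla3. In a piece of whole liver, fewer cells of a type and less RNA per cell cannot be told apart. Across the 16 arrays the levels of Plin4 and Plin5 correlated at r = 0.90 (0.88 without Het_control 2), and their deviations from the group means at r = 0.58, a description over arrays that share groups, diets and the normalization.

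**Figure D1:**
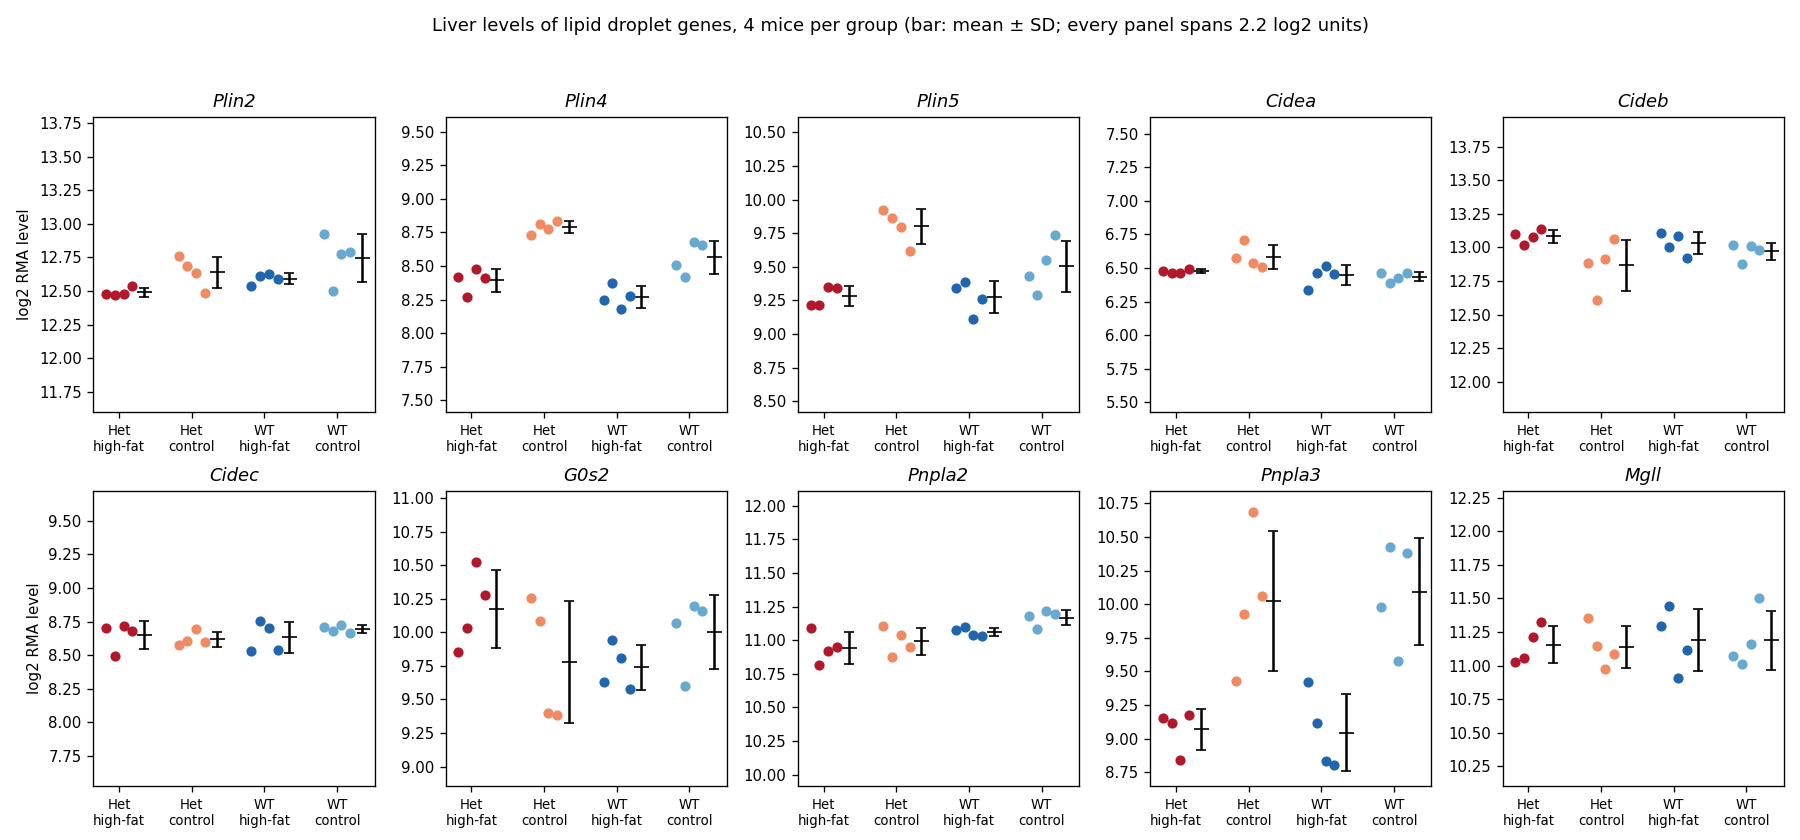
Liver levels (vertical axis, log2 RMA) of the 10 lipid droplet genes in Het_HFD, Het_control, WT_HFD and WT_control, with 1 point per mouse and a bar for the mean ± SD of 4 mice; every panel spans the same width on the log2 scale. Points of Pnpla3 and Plin4 in the high-fat groups lie below all points of the control group of the same genotype, and points of Mgll and Cidec overlap across the groups.

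Within heterozygotes the same 3 of 10 genes fell and 0 rose, against a background of 2.22% of genes called in either direction and 0.712% called lower, with 1.5% called higher. Plin4 differed by -0.40 (SE 0.07, limma adjusted p = 0.0152), Plin5 by -0.52 (SE 0.09, adjusted p = 0.0165) and Pnpla3 by -0.96 (SE 0.22, adjusted p = 0.0417). These calls depended on single arrays: Plin4 and Plin5 lost theirs without Het_HFD 2 (adjusted p = 0.0569 and 0.0574), and Pnpla3 kept its call in 6 of 16 fits that left out 1 array, with adjusted p between 0.0234 and 0.104. Its call was lost without any 1 of the 4 Het_HFD arrays, Het_control 2 or 3, WT_HFD 3, or WT_control 1, 2 or 4. Leaving out Het_control 2, the array that stood apart, gave -0.39 for Plin4 (adjusted p = 0.0212), -0.50 for Plin5 (adjusted p = 0.0284) and -0.99 for Pnpla3 (adjusted p = 0.0621). With all probe sets tested, Pnpla3 was not called in heterozygotes (adjusted p = 0.0686). In a fit of the 8 heterozygote arrays alone none of the 10 was called. The groups of 4 of 10 genes did not overlap and were lower on the high-fat diet (Plin4, Plin5, Pnpla3 and Cidea), against 7.15% of all genes.

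Within wild type 0 of 10 genes were called by limma, as were 0.0% of all 19938 genes, and 3 of 10 had an unadjusted p under 0.05, against 1282 of all genes (6.43%). The differences were -1.05 for Pnpla3 (SE 0.22, adjusted p = 0.206), -0.29 for Plin4 (SE 0.07, adjusted p = 0.298) and -0.23 for Plin5 (SE 0.09, adjusted p = 0.663). With array weights (219 of all 19938 genes called), and with a random block for the number in the sample titles (40 called), Plin4 and Pnpla3 were called lower in wild type. The correlation estimated for that block was negative (-0.37), so mice sharing a number were treated as less alike than other mice. The standard error of Plin4 in wild type was 0.059 with the block, against 0.070 in the fit reported here. Groups were apart and lower on the high-fat diet for 2 of 10 genes, Plin4 and Pnpla3, against 5.0% of all genes. Both are among the 0.542% of genes whose groups were apart and lower in both genotypes, and the diet comparisons of heterozygotes and wild type share no arrays. That number, whose meaning the labels do not state, is the same in 1 WT_HFD and 1 WT_control mouse, and between these 2 mice Pnpla3 was 9.12 in WT_HFD and 9.98 in WT_control, Plin4 8.38 in WT_HFD and 8.51 in WT_control, and Plin5 9.39 in WT_HFD and 9.43 in WT_control. Another 4 title numbers are each held by 2 mice of 1 group, so that every group has mice that share a number and may not be independent. No title number occurs in both genotypes, so what it stands for cannot be told apart from genotype.

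Plin2 encodes the perilipin that coats most droplets of liver cells and is widely used as a marker of stored fat. Its level was 12.47, 12.47, 12.48 and 12.54 in Het_HFD, against 12.76, 12.68, 12.63 and 12.49 in Het_control. In wild type it was 12.54, 12.61, 12.63 and 12.59 in WT_HFD, against 12.93, 12.50, 12.78 and 12.79 in WT_control. In each genotype 3 of 4 control arrays lay above all high-fat arrays, and 1 control array lay among or below them. The difference over both genotypes was -0.15 (95% interval -0.27 to -0.036), which did not pass the test (limma adjusted p = 0.125), and it was of this size in heterozygotes (-0.15) and in wild type (-0.16).

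The CIDE genes showed no called diet difference in the fit reported here. Cideb, the CIDE gene of normal liver cells, where its protein sits on droplets and on the endoplasmic reticulum and helps to lipidate secreted lipoproteins, was 13.10, 13.02, 13.08 and 13.14 in Het_HFD, against 12.89, 12.61, 12.91 and 13.06 in Het_control. Among wild-type mice it was 13.11, 13.01, 13.08 and 12.92 in WT_HFD, against 13.02, 12.88, 13.01 and 12.98 in WT_control. The lowest of the 16 arrays was Het_control 2, and the groups overlapped in both genotypes. Cideb differed by 0.22 in heterozygotes (SE 0.08, limma adjusted p = 0.106), by 0.13 there without Het_control 2, by 0.060 in wild type and by 0.14 over both genotypes (adjusted p = 0.154). With a random block for the title number Cideb was called higher in heterozygotes (0.23, limma adjusted p = 0.0234) and over both genotypes (0.15, adjusted p = 0.0459). That fit called 6938 of all 19938 genes in heterozygotes and 3703 over both genotypes. With array weights Cideb was called over both genotypes (0.13, adjusted p = 0.0489), in a fit that called 2105 of all genes there.

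Cidec, known in mouse as Fsp27, makes large single droplets in white fat and is known to appear in fatty liver. Its levels lay between 8.49 and 8.76 on all 16 arrays, the narrowest range of the 10 genes at 0.27 on the log2 scale. The group means were 8.65 ± 0.10 in Het_HFD and 8.62 ± 0.05 in Het_control, and 8.63 ± 0.11 in WT_HFD and 8.70 ± 0.03 in WT_control (SD, n = 4 each), and all groups compared overlapped. The diet difference over both genotypes was -0.016 with a 95% interval of -0.12 to 0.084 (limma adjusted p = 0.810). Cidea, a CIDE gene known from brown fat and from strongly fatty mouse liver, lay between 6.34 and 6.71 on all arrays, and its mean level fell under the 30th percentile of all genes, so it is read here as a dim probe set. It was 6.48, 6.46, 6.46 and 6.49 in Het_HFD, against 6.58, 6.71, 6.54 and 6.51 in Het_control, where Het_control 2 was the highest of the 16. In wild type its mean was 6.45 ± 0.07 in WT_HFD and 6.44 ± 0.04 in WT_control (SD, n = 4 each). The diet difference of Cidea was -0.11 in heterozygotes (SE 0.06, limma adjusted p = 0.202) and 0.0099 in wild type. In heterozygotes it was -0.065 without Het_control 2 (adjusted p = 0.494) and -0.0090 after repeated quantile normalization.

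Among the lipases and their regulators, G0s2 varied most between mice after Pnpla3. Its protein binds and inhibits adipose triglyceride lipase. Its level was 9.86, 10.04, 10.53 and 10.28 in Het_HFD, against 10.25, 10.08, 9.40 and 9.38 in Het_control. In wild type it was 9.63, 9.94, 9.81 and 9.58 in WT_HFD, against 10.07, 9.60, 10.19 and 10.16 in WT_control. The 2 heterozygote groups overlapped, with Het_control split between 2 arrays above 10 and 2 below 9.5, and the wild-type groups overlapped through WT_control 2. The diet difference was 0.39 in heterozygotes (SE 0.19, limma adjusted p = 0.167) and -0.26 in wild type (SE 0.19, adjusted p = 0.908). With a random block for the title number G0s2 was called higher in heterozygotes (0.43, adjusted p = 0.0498), in a fit that called 6938 of all 19938 genes there. In the fit reported here, the difference between the heterozygote and wild-type responses, the interaction, was 0.66 (95% interval 0.084 to 1.23, unadjusted p = 0.0271). Limma's adjusted p over all genes for it was 0.565.

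Pnpla2, the lipase that G0s2 binds, was 11.09, 10.81, 10.92 and 10.95 in Het_HFD, against 11.11, 10.87, 11.04 and 10.95 in Het_control. Among wild-type mice it was 11.07, 11.10, 11.04 and 11.03 in WT_HFD, against 11.18, 11.08, 11.21 and 11.19 in WT_control. The heterozygote groups covered nearly the same span, and in wild type 3 of 4 control arrays lay above all high-fat arrays. The diet difference over both genotypes was -0.078 (95% interval -0.18 to 0.023, limma adjusted p = 0.266). Mgll, whose enzyme splits the last fatty acid from glycerol and also degrades the endocannabinoid 2-arachidonoylglycerol, had means of 11.16 ± 0.14 in Het_HFD and 11.14 ± 0.16 in Het_control, and 11.19 ± 0.23 in WT_HFD and 11.19 ± 0.22 in WT_control (SD, n = 4 each). Its diet difference over both genotypes was 0.0089 with a 95% interval of -0.17 to 0.19 (adjusted p = 0.945). Within groups, mice with more Mgll also had more Plin5: the deviations of the 2 genes from their group means correlated at r = 0.86 and rho = 0.88 over the 16 arrays, the highest r among the 45 gene pairs, given as a description.

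**Figure D2:**
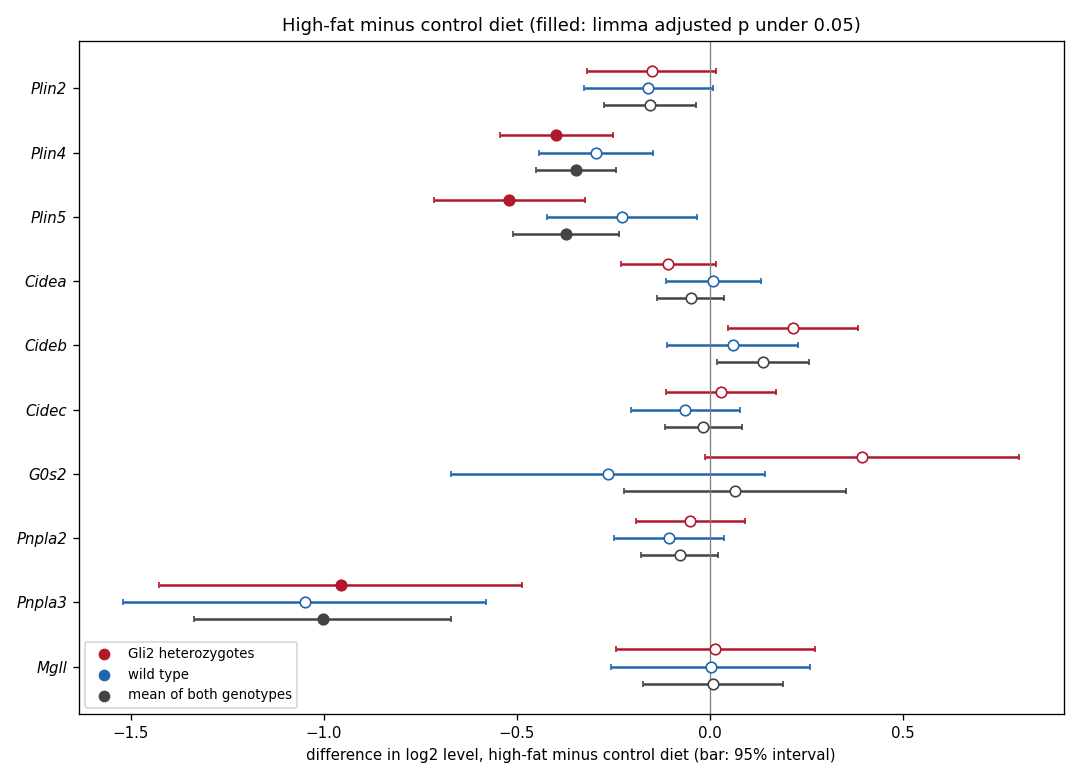
Diet difference of each lipid droplet gene (horizontal axis, high-fat minus control diet, log2) in Gli2 heterozygotes, in wild type and over both genotypes, with 95% intervals from limma; filled points have an adjusted p under 0.05. The filled points are Plin4, Plin5 and Pnpla3 in heterozygotes and over both genotypes, and the intervals of Cidec and Mgll span 0.

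In genotype comparisons none of the 10 genes was called. On the control diet 0 of 10 were called, as were 0.0% of all genes, and 4 of 10 had an unadjusted p under 0.05, against 3135 of all genes (15.7%). The smallest p-values among the 10 there belonged to the neighbours Plin4 and Plin5. Plin4 averaged 8.79 ± 0.05 in Het_control and 8.56 ± 0.12 in WT_control (SD, n = 4 each), a difference of 0.23 (SE 0.07, limma adjusted p = 0.279) with groups that did not overlap. Plin5 averaged 9.80 ± 0.13 in Het_control and 9.50 ± 0.19 in WT_control (SD, n = 4 each), a difference of 0.30 (SE 0.09, adjusted p = 0.279), and WT_control 4 lay among the Het_control arrays. Cidea (0.15, SE 0.06, adjusted p = 0.298) was the other gene whose groups did not overlap and were higher in heterozygotes, which makes 2 of 10 against 4.03% of all genes. Without Het_control 2, the highest array for this dim probe set, the difference of Cidea was 0.11 (limma adjusted p = 0.620). Pnpla2 was the one of these genes with a lower mean in heterozygotes at an unadjusted p under 0.05, with a difference of -0.18 (SE 0.07, adjusted p = 0.291).

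On the high-fat diet 0 of 10 genes differed by genotype, against 0.00502% of all genes called, and 1 of 10 had an unadjusted p under 0.05, against 3.57%. Plin5 averaged 9.28 ± 0.07 in Het_HFD and 9.27 ± 0.12 in WT_HFD (SD, n = 4 each), a difference of 0.0064 with a 95% interval of -0.19 to 0.20. Plin4 differed by 0.12 (SE 0.07) and Pnpla3 by 0.025 (SE 0.22), and G0s2, with 0.43 (SE 0.19, unadjusted p = 0.0379, limma adjusted p = 0.9996), had the largest difference. Over both diets 0 of 10 were called, against 0.00502% of all genes, and 4 of 10 had an unadjusted p under 0.05, against 7.76%. The differences were 0.17 for Plin4 (SE 0.05), 0.15 for Plin5 (SE 0.07) and -0.15 for Pnpla2 (SE 0.05), each with an adjusted p of 0.573. For the interaction 0 of 10 and 0.0% of all genes were called, with 2 of 10 at an unadjusted p under 0.05, against 1621 of all genes (8.13%). For Plin5 it was -0.29 (SE 0.13, unadjusted p = 0.0394, adjusted p = 0.600), so that the larger diet difference of Plin5 in heterozygotes is not shown to differ from that in wild type. The comparison by genotype on the control diet and the diet comparison within heterozygotes share the Het_control arrays.

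**Figure D3:**
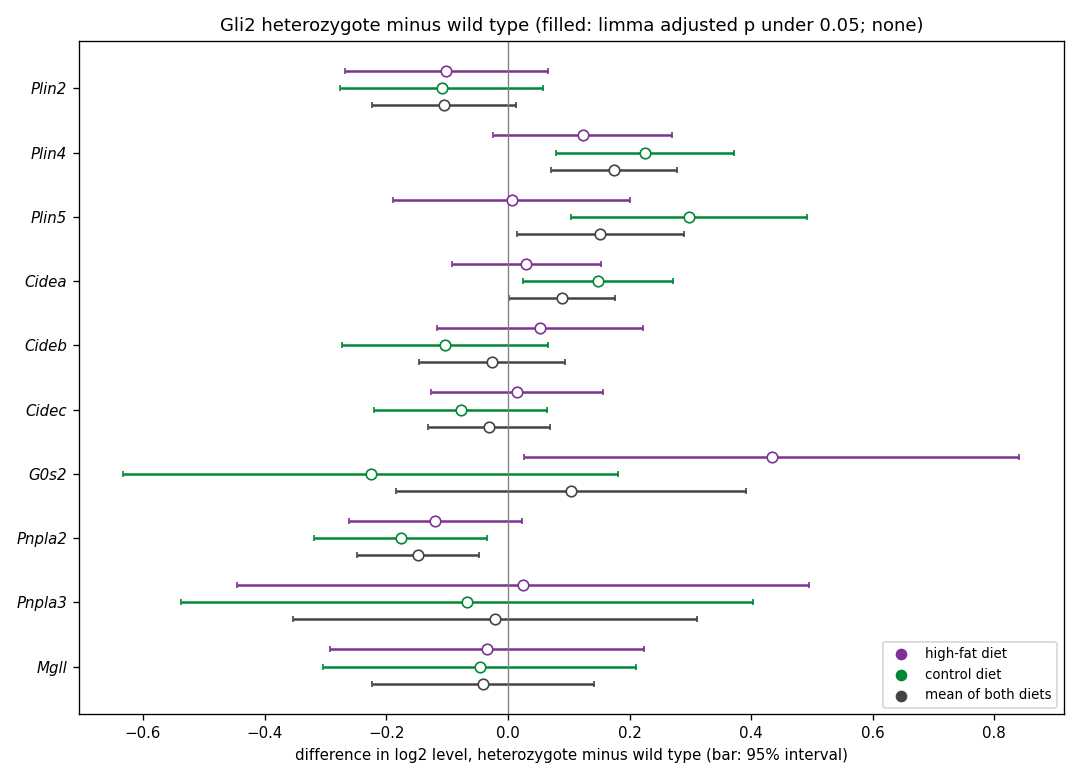
Genotype difference of each lipid droplet gene (horizontal axis, heterozygote minus wild type, log2) on the high-fat diet, on the control diet and over both diets, with 95% intervals from limma. All points are open, since no adjusted p was under 0.05; the control-diet points of Plin4 and Plin5 lie at 0.23 and 0.30, and their high-fat points at 0.12 and 0.0064.

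The wider lipid storage pathway was read from 4 lists, chosen for their roles with earlier results of these data known. Their counts in heterozygotes stand beside 1.5% of all genes called higher and 0.712% called lower, which is no test of the lists. Of 14 other droplet proteins, 14 were measured and 1 rose in heterozygotes on the high-fat diet. This was Fitm1, whose protein binds triglyceride and helps droplets form and which is best known from muscle. Fitm1 was 10.52, 9.68, 10.75 and 10.78 in Het_HFD, against 9.23, 8.80, 9.23 and 10.13 in Het_control, so that the groups overlapped through 1 array each. It rose by 1.08 on the log2 scale in heterozygotes (SE 0.25, limma adjusted p = 0.0417), a call that held in 4 of 16 fits without 1 array. Wild-type mice had 9.92, 10.31, 10.55 and 9.92 in WT_HFD, against 9.66, 9.40, 9.55 and 9.80 in WT_control, with no overlap and a difference of 0.57 (SE 0.25, adjusted p = 0.751). Over both genotypes Fitm1 rose by 0.83 (SE 0.18, adjusted p = 0.0282, called in 8 of 16 such fits).

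Of 14 other lipolysis genes, 13 were measured and 1 rose in heterozygotes, namely Daglb, whose lipase makes 2-arachidonoylglycerol from diacylglycerol. Daglb was 9.90, 9.90, 9.94 and 9.95 in Het_HFD, against 9.58, 9.25, 9.52 and 9.76 in Het_control, and the groups did not overlap. The difference was 0.39 in heterozygotes (SE 0.09, limma adjusted p = 0.0352, called in 8 of 16 fits without 1 array), 0.12 in wild type (SE 0.09, adjusted p = 0.902) and 0.26 over both genotypes (SE 0.06, adjusted p = 0.0397, called in 2 of 16 such fits). Of 16 genes of triglyceride synthesis, 14 were measured, 1 rose and 1 fell in heterozygotes. Lpin1, whose phosphatase makes diacylglycerol for storage and which also acts in the nucleus with transcription factors, was 11.31, 11.53, 11.31 and 11.49 in Het_HFD, against 12.07, 12.38, 12.93 and 12.94 in Het_control. In wild type Lpin1 was 12.46, 12.33, 11.53 and 11.75 in WT_HFD, against 11.93, 12.24, 11.96 and 12.54 in WT_control. The heterozygote groups did not overlap, whereas in wild type 2 of 4 WT_HFD arrays lay below all WT_control arrays and the other 2 lay among them. Lpin1 fell by 1.17 on the log2 scale in heterozygotes (SE 0.21, adjusted p = 0.0167, a call lost without Het_HFD 3 and in the fit of 8 arrays), against a difference of -0.15 in wild type (SE 0.21, adjusted p = 0.951), and the interaction of -1.02 did not pass the test (SE 0.30, adjusted p = 0.395). Over both genotypes Lpin1 fell by 0.66 (SE 0.15, adjusted p = 0.0341, called in 6 of 16 such fits). Agpat2, an acyltransferase of the same route, rose in heterozygotes by 0.41 (SE 0.10, adjusted p = 0.0453, called in 2 of 16 fits without 1 array) and had a difference of -0.057 in wild type.

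Of 10 regulators of lipid genes, all were measured and 2 rose in heterozygotes. Pparg, a nuclear receptor that turns on droplet genes in fat and in fatty mouse liver, was 10.39, 10.17, 10.17 and 10.43 in Het_HFD, against 9.77, 9.32, 9.67 and 10.02 in Het_control. The groups did not overlap, and the difference was 0.60 (SE 0.12, limma adjusted p = 0.0257, called in 11 of 16 fits without 1 array), against 0.017 in wild type (SE 0.12). Nr1h3, which encodes the oxysterol receptor LXR-alpha, rose by 0.38 in heterozygotes (SE 0.08, adjusted p = 0.0352, called in 13 of 16 such fits), with a difference of 0.077 in wild type. Over both genotypes Nr1h3 rose by 0.23 (SE 0.06, adjusted p = 0.0480, called in 2 of 16 such fits). In heterozygotes Fitm1, Daglb, Agpat2, Pparg and Nr1h3 each lost the call with all probe sets tested (adjusted p between 0.0583 and 0.0699) and in the fit of 8 arrays. The difference by genotype in these responses was not called for any of the 6 genes named from the 4 lists. On the control diet 0.0% of all genes were called by genotype, and none of these 6. Het_control means there lay below WT_control means for Pparg (-0.29), Agpat2 (-0.27), Fitm1 (-0.26), Daglb (-0.23) and Nr1h3 (-0.16). For Lpin1 the Het_control mean lay above (0.41). Limma adjusted p for the 6 lay between 0.287 and 0.539. That comparison shares the Het_control arrays with the diet comparison in heterozygotes. For Fitm1, Daglb, Agpat2, Pparg and Nr1h3 Het_control 2 was the lowest Het_control array. Without it their heterozygote differences were 0.90, 0.30, 0.30, 0.47 and 0.31. Fitm1 and Agpat2 then lost the call (limma adjusted p = 0.0774 and 0.0684), and Lpin1 read -1.23 and kept it. Without Het_control 2 the heterozygote calls numbered 0 for droplet proteins, 1 for lipolysis, 1 for triglyceride synthesis and 2 for regulators. The lipid droplet genes had 2, and 174 of all 19938 genes were called, against 442 with all arrays. Over both genotypes the counts did not drop without Het_control 2. They were 2 for droplet proteins, 1 for lipolysis, 3 for triglyceride synthesis and 1 for regulators, against 1 for each list with all arrays. The lipid droplet genes had 3 either way, and 712 of all genes were called there, against 371 with all arrays.

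In wild type 0 genes of the 4 lists were called. The median diet difference in heterozygotes was -0.078 for the lipid droplet genes, against 0.056 for other droplet proteins, 0.12 for lipolysis, 0.061 for triglyceride synthesis and 0.18 for regulators, and it was -0.051 for all genes. Without Het_control 2 these medians were -0.077 for the lipid droplet genes, 0.030 for other droplet proteins, 0.022 for lipolysis, -0.0036 for triglyceride synthesis and 0.095 for regulators, so that most of the lipolysis median and the sign of the triglyceride synthesis median rested on that array. In wild type the medians were -0.13 for the lipid droplet genes, -0.023 for other droplet proteins, -0.0061 for lipolysis, -0.057 for triglyceride synthesis and 0.031 for regulators, and -0.014 for all genes. The lipid droplet genes had 6 of 10 values below 0 in heterozygotes and 7 of 10 in wild type.

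**Figure D4:**
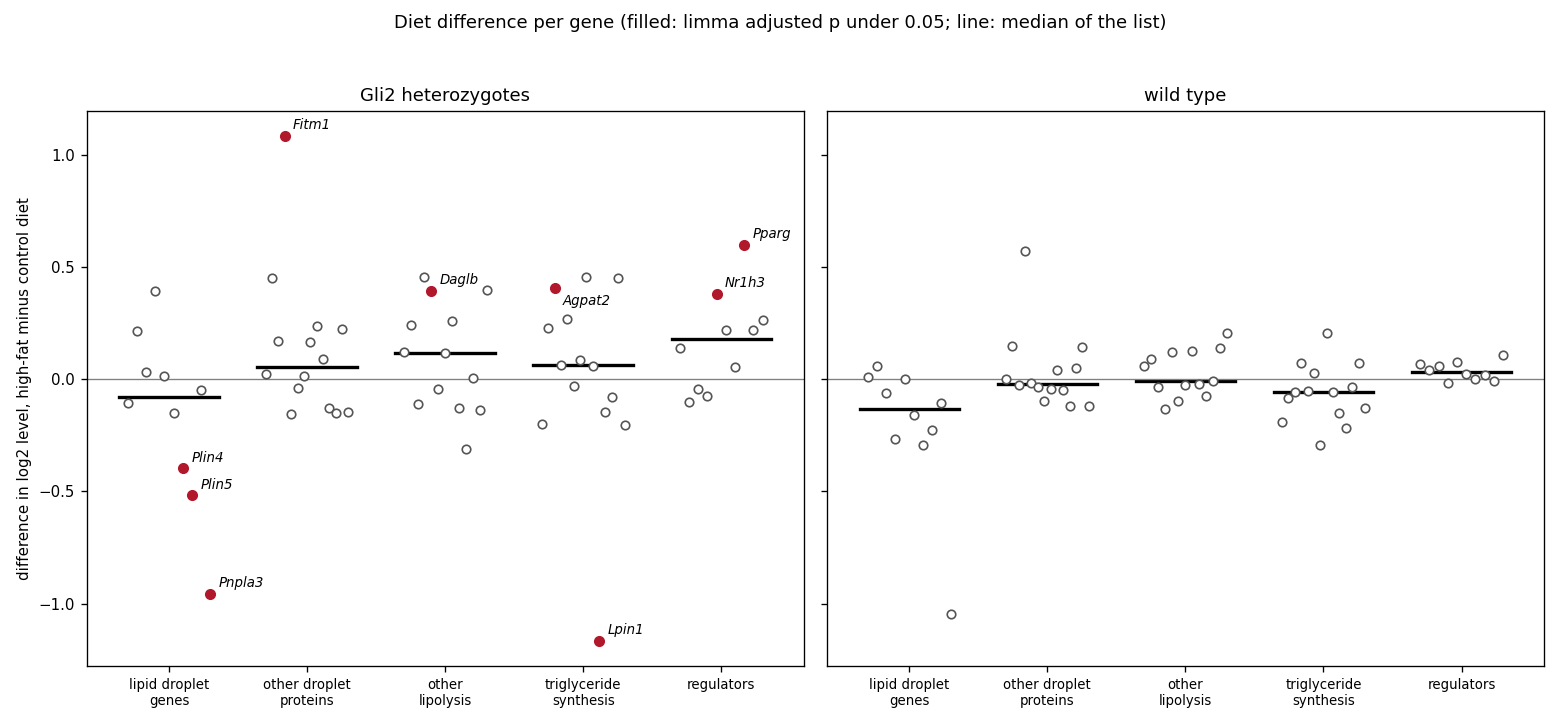
Diet difference (vertical axis, high-fat minus control diet, log2) of each gene of the lipid droplet genes and of 4 related lists, in Gli2 heterozygotes (left) and wild type (right), with a line at each list's median; filled points have a limma adjusted p under 0.05 and are named. In heterozygotes Plin4, Plin5, Pnpla3 and Lpin1 are the filled points below 0, and no point is filled in wild type, where Pnpla3 lies lowest at -1.05.

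Some markers of other cells rose with diet in heterozygotes, where 1.5% of all genes were called higher. In either direction 442 of all 19938 genes were called in heterozygotes, against 174 without Het_control 2. Of 9 macrophage and Kupffer cell markers, 4 rose there (Adgre1, Cd68, Csf1r and Vsig4), or 2 of 9 without Het_control 2, and the summed level of the 9 was 13.67 to 13.97 in Het_HFD, against 13.04 to 13.55 in Het_control. In wild type 0 of 9 were called, and the summed level was 13.23 to 13.93 in WT_HFD, against 13.49 to 13.62 in WT_control. Of the genes listed as white adipocyte markers, 0 of 7 were called in either genotype. Their sums were 10.79 to 10.95 in Het_HFD, 10.72 to 10.88 in Het_control, 10.81 to 11.01 in WT_HFD and 10.80 to 10.89 in WT_control. This list shares genes with the lists studied here. It holds Cidea, itself a lipid droplet gene and known from brown fat, Plin1 of the other droplet proteins and Lipe of the lipolysis list. It is therefore neither a separate check nor specific to white fat. Of 8 stellate cell markers 1 rose in heterozygotes (Lrat), or 0 of 8 without Het_control 2, and of 8 endothelial, 4 bile duct, 7 lymphocyte and 4 pancreas markers measured 0 were called in the diet comparisons. No marker was at 0 on any array, but this does not show that each was detected, since the dim probe set of Cidea also read at least 6.34. The part of these cell markers in the falls of Plin4, Plin5 and Pnpla3 was not tested.

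The gene of the 10 with the smallest p for diet over both genotypes was Plin4, and the 5 other genes whose levels followed it most closely over the 16 arrays were C4bp-ps1 (Pearson r = 0.88), Mns1 (0.84), Mir133a-2 (0.84), Mir542 (0.84) and Lingo2 (0.83). Without Het_control 2 these values were 0.86, 0.82, 0.81, 0.82 and 0.80 over 15 arrays, and the 5 genes ranked 3, 18, 27, 22 and 35, so most of them were then no longer among the closest 5. Within the 10 genes, Plin5 was closer to Plin4 than these 5, and Pnpla3 correlated with Plin4 at 0.66 in level and at -0.14 in deviations from the group means, so the likeness of Plin4 and Pnpla3 lay in the group means. As descriptions across arrays these values share the diet groups and carry no p.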

How the data were processed

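Liver RNA of 16 mice was hybridised to Affymetrix MoGene 1.0 ST arrays, 1 array per animal, with no pooling stated in the sources used here. The deposited values are log2 expression levels, 1 per probe set, that the authors made with RMA in Affymetrix Expression Console, according to the labels and per the submitters' processing notes, which name no version. RMA corrects background, evens out probe values between arrays and then combines probes. A shift common to all transcripts would therefore be removed, and levels are relative to the other arrays. The resulting gene levels were still not equally spread between arrays. Their interquartile range was 1.95 on Het_control 2, against 2.40 to 2.60 on the other 15 arrays.

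The table has 35556 probe sets, of which 21789 carry a single gene symbol in the platform's annotation, 1621 several and 12146 none. Symbols were updated through the Entrez number with a RefSeq table (GRCm38.p6), which matched 19856 of 19938 genes. A gene was represented by its probe set with the highest mean over all arrays. One fit with limma 3.58.1 in R 4.3.3 (statmod 1.5.0) gave each group a mean and the 16 arrays a common spread. The 7 comparisons were diet within each genotype, diet over both genotypes, genotype within each diet, genotype over both diets and the interaction. Benjamini-Hochberg adjustment ran over the 19938 genes of each comparison, and calls were made at an adjusted p under 0.05. Standard errors and 95% intervals come from this fit. The fit was tested before use on simulated data with independent noise of equal spread on all arrays. That test does not cover an array that stands apart, such as Het_control 2, or mice that share a title number. With 4 arrays a group, precision is limited by their number. Animals are treated as independent, although 4 title numbers are each shared by 2 mice of 1 group.

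The 10 lipid droplet genes, the 4 related lists and the 8 marker lists were chosen with earlier results of these data known. Every lipid droplet gene was named. From the related lists, members called in a comparison were named, and the 5 genes most like Plin4 were taken by Pearson r. The alternatives tried were the mean of a gene's probe sets, all probe sets, a filter on dim genes at the 30th percentile, repeated quantile normalization, subtraction of each array's median, trend and robust moderation, array weights, the number in the sample titles as a random block, a fit of the 8 arrays compared, and leaving out each array in turn. Replicate numbers only name animals in accession order and pair none.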

Additional observations from a re-analysis of the deposited data

Results flagged for a closer look

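In a test of each group of 4 for 1 mouse far from the other 3, run on 40 groups of the lipid droplet genes, 2 were far out, and chance gives about 1 in 20. Plin2 was 12.54 in Het_HFD 4, above the other 3 Het_HFD mice, and Cidec was 8.49 in Het_HFD 2, below the other 3 Het_HFD mice. Both gaps are small on the log2 scale and neither gene was called. Among the genes named from the related lists, Daglb was 9.61 in WT_control 3, below the other 3 WT_control mice, and the other 3 were also below every WT_HFD mouse.

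The diet difference of G0s2 had opposite signs in the 2 genotypes, and neither passed the test. Every Het_HFD mouse was above the Het_control mean and every WT_HFD mouse was below the WT_control mean, and the difference between the responses was 0.66 on the log2 scale (SE 0.27). It did not pass the limma test over all genes (adjusted p = 0.565, with 0.364 to 0.792 when 1 array was left out).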

How the results depend on the processing

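Over both genotypes, Plin4, Plin5 and Pnpla3 were called lower in all 8 other settings run and without each array in turn, and Cideb was called higher besides with array weights and with a random block for the title number. In heterozygotes the count of 3 became 5 with that block, whose estimated correlation was -0.37, through Cideb and G0s2, both higher, and 0 in a fit of the 8 arrays alone, and it ran between 0 and 4 without 1 array; the 0 came without Het_HFD 2. In wild type the count of 0 became 2 with array weights and 2 with the random block. No called difference turned its sign in 393 combinations of a called difference with another setting, though some settings cannot change the difference itself. Some differences near 0 did turn their sign. With quantile normalization, Mgll read -0.068 in heterozygotes, -0.029 in wild type and -0.049 over both, Cidea 0.0093 over both and Pparg -0.018 in wild type. With the random block, Mgll read -0.078 in wild type and -0.025 over both, and Pparg -0.014 in wild type. With array weights Cidea read -0.014 in wild type, and with the array median subtracted Pnpla2 read 0.0083 in heterozygotes and Cidec 0.020 over both. Without 1 array, Mgll ran between -0.042 and 0.085 in heterozygotes, -0.081 and 0.11 in wild type and -0.033 and 0.061 over both, Cidea between -0.014 and 0.045, Lpin1 between -0.30 and 0.0099 and Pparg between -0.029 and 0.088 in wild type, and Cidec between -0.037 and 0.0096 and G0s2 between -0.0022 and 0.14 over both. Calls over all genes moved most: 442 in heterozygotes against 95 with all probe sets, 1067 with array weights, 6938 with the random block and 7 with 8 arrays; 371 over both against 146, 2105 and 3703 in the first 3 of these; 0 in wild type against 219 with array weights, 40 with the random block and 6 with 8 arrays. Without 1 array these counts ran between 45 (without Het_HFD 3) and 3446 (without Het_control 4) in heterozygotes, 104 (without Het_HFD 4) and 1754 (without Het_control 4) over both and 0 and 7 in wild type, so the shares of all genes given as background move too. The causes were not tested. Cidea has no value under the dim-gene filter, and the fit of 8 arrays has none over both genotypes. No paired analysis was possible because the replicate numbers only name animals, and the single title number found in 2 groups joins 1 pair of mice.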
